A study of Mus musculus with 36 samples.

Results

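TNF, its receptors, the adaptors that bind them and the IAP (inhibitor of apoptosis) genes were followed at 4 h after treatment of mouse glia in culture, in microglia and in astrocytes. The genes were taken by name: the ligand gene Tnf, the receptor genes Tnfrsf1a and Tnfrsf1b, the adaptor genes Tradd, Traf1 and Traf2, and the IAP genes Birc2, Birc3 and Xiap. All 9 names were found in both tables, as 9 of 15385 genes in microglia and 9 of 14551 genes in astrocytes, and all 9 passed the filter on low values that left 10524 and 13842 genes for the tests. The RNA-seq addressed how far the transcriptional response to TNF, given with drugs that turn its signal towards death, hangs on the kinase RIPK1. Microglia received 6 treatments with 4 libraries each: the vehicle DMSO, the RIPK1 inhibitor Nec-1s, TNF plus 5z-7, which inhibits the kinase TAK1 (T/5z), TNF plus a Smac mimetic plus zVAD, which blocks caspases (T/S/Z), and both mixtures again together with the RIPK1 inhibitor (T/5z/N, and likewise T/S/Z/N). Astrocytes received 4 of these, all but T/5z and T/5z/N, with 3 libraries each. All cells came from C57BL/6 pups 2 to 4 days old. Their pooled brains were grown as mixed glia for 12 days, microglia were then selected on CD11b, and the astrocytes were in turn positively selected, with a kit for the label APC, out of the cells that this left. No group received TNF alone, and TNF was itself added to every stimulated group, so that the transcript of Tnf was read in cells already given the protein.

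TNF is a cytokine made by activated myeloid cells such as microglia. It binds TNFR1 (encoded by Tnfrsf1a), which most cells carry, and TNFR2 (encoded by Tnfrsf1b), which is most abundant on immune cells. At TNFR1 the adaptor TRADD brings in TRAF2, and TRAF2 carries cIAP1 and cIAP2 (encoded by Birc2 and Birc3), ubiquitin ligases that decorate RIPK1 and open the way to NF-κB. Smac mimetics copy the natural IAP antagonist Smac, bind the IAP proteins and make cIAP1 and cIAP2 destroy themselves, which frees RIPK1 to signal for death. XIAP, encoded by Xiap, binds and blocks caspases. TRAF1 lacks the RING domain of the other TRAF proteins and is known as a target of NF-κB, as are Birc3 and Tnf itself. The treatments act on the proteins, and the values given here are of their transcripts alone.

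Values are log2(FPKM + 1), where FPKM is the number of fragments per kilobase of exon, scaled to the size of the library. A gene was called changed when its fold change on this scale exceeded 1.5 and the adjusted p of limma, over all genes tested, was under 0.05. The microglial libraries carried microglial markers (summed FPKM of 16 markers between 12266 and 14987), although the resting-state markers P2ry12 (2.22 to 2.62 in DMSO) and Tmem119 (3.03 to 3.51) were low and Siglech (0.05 to 0.18) was near 0. Single markers moved beneath this sum. From DMSO to T/5z the median of Cx3cr1 went from 7.98 to 6.39 and that of Tmem119 from 3.36 to 4.78. The astrocyte libraries carried astrocyte markers (Gfap 10.94 to 11.02 in DMSO) beside fibroblast markers (Col1a1 6.58 to 7.05) and oligodendrocyte lineage markers (Olig1 5.95 to 6.32). In bulk RNA, fewer cells of a type and less RNA per cell cannot be told apart. Depth, read from the steps between low values, came to between 21.3 and 22.4 M reads or read pairs per astrocyte library and between 18.3 and 25.3 M in replicate 4 of microglia. No depth could be read for the other microglial replicates, in which every gene has a mean equal to its mean in replicate 4. A shift that is equal for all treatments of a replicate leaves the differences within that replicate as they were, but it takes spread between replicates out of the microglial SDs and ranges, which are narrower for it, also where groups are said not to overlap.

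The genes lie on 7 mouse chromosomes (build GRCm38). Tnf spans chr17:35199381-35202007 on the minus strand, Traf1 chr2:34941750-34961772, and Traf2 chr2:25517982-25546940. Birc2 (chr9:7818227-7837064) and Birc3 (from chr9:7848699) are neighbours on the minus strand, 11634 bases apart with 0 annotated genes between them. Traf2 shares 240 bases with Gm13433, a processed pseudogene on the opposite strand, and without strand the reads of such a pair cannot be told apart. Traf2 also carries a mark of confounding in both tables, whose meaning is not given in the sources used here.

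Promoter sequences of 8 of the 9 genes were at hand from RefSeq (GRCm38.p6), in 11 windows of the 250 bases before a transcript's start. Tnf, Birc2 and Birc3 are printed because they are the genes whose response to Nec-1s differed between the stimuli. Each is given 5′ to 3′ on the strand of the gene, with matches of the motifs named below in capitals.
Tnf (chr17:35202008-35202257, minus strand): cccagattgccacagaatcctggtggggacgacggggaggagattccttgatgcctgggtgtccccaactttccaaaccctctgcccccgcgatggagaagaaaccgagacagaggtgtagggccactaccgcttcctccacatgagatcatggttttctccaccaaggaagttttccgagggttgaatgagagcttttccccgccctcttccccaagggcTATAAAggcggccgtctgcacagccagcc
Birc2 (chr9:7837058-7837307, minus strand): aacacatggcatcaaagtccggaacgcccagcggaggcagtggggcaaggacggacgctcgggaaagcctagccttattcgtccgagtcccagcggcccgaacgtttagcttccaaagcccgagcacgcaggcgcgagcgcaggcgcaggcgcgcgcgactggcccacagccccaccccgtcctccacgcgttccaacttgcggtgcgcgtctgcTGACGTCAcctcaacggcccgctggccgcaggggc
Birc3 (chr9:7873171-7873420, minus strand): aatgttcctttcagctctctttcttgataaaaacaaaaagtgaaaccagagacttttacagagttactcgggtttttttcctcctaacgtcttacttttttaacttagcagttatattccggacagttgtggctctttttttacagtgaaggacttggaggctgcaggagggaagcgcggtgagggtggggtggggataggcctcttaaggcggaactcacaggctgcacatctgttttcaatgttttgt
The capitals in Tnf are TATAAA, the TATA box, 29 to 24 bases before the start. Those in Birc2 are TGACGTCA, the cyclic AMP response element, 35 to 28 bases before the start. The table holds another window for Birc2, before a start inside the gene (chr9:7836807-7837056), which has 0 matches of these motifs and is not printed, and 1 of the 3 windows of Xiap holds TATAAA, read on the opposite strand 249 to 244 bases before the start. Both strands were searched, the motifs do not overlap, and these 2 were picked after the sequences had been seen. TATAAA was found in 12.37% of all 32851 promoter windows of the table and TGACGTCA in 1.55%. The κB-like motif GGGNNNTTC was held by 11.82% of all windows and by 0 of the 11 windows of these genes. The G and C content was 57.6% in the Tnf window, 68.4% in that of Birc2 with the motif and 61.2% in the other, and 43.6% in that of Birc3.

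In untreated microglia Tnfrsf1b was the most abundant of the 9 transcripts, at 383 FPKM against 82.6 FPKM for Tnfrsf1a. On the log2 scale, the DMSO means were 8.59 ± 0.03 (SD, n = 4) for Tnfrsf1b, 6.38 ± 0.07 for Tnfrsf1a, 4.58 ± 0.12 for Birc3, 4.44 ± 0.07 for Xiap, 4.16 ± 0.07 for Tradd, 3.87 ± 0.04 for Traf2, 3.28 ± 0.15 for Birc2, 2.85 ± 0.24 for Tnf and 1.66 ± 0.07 for Traf1. Among neighbours in this order the library ranges overlapped between Birc3 and Xiap and between Birc2 and Tnf. In untreated astrocytes the order was another. Tnfrsf1a led at 6.46 ± 0.04 (SD, n = 3), followed by Traf1 at 5.09 ± 0.20, Xiap at 4.16 ± 0.13, Birc2 at 4.06 ± 0.13, Traf2 at 3.39 ± 0.15, Tradd at 2.63 ± 0.12, Tnfrsf1b at 1.99 ± 0.23, Birc3 at 1.89 ± 0.22 and Tnf at 0.19 ± 0.09. The ranges of Xiap and Birc2 overlapped, as did those of Tnfrsf1b and Birc3. Astrocytes thus had TNFR1 transcripts far above those of TNFR2, with 29.9 ± 6.8 FPKM of Tnfrsf1a for each FPKM of Tnfrsf1b, and microglia had the reverse, with 0.216 ± 0.014.

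T/5z called 6 of the 9 genes in microglia, all higher than in DMSO, and T/S/Z called 5, all higher. Tnf, Tnfrsf1b, Traf1, Traf2 and Birc3 were called in both, and Birc2 after T/5z. Over all genes tested, T/5z called 24.4% in either direction, and T/S/Z called 29.6%. The median change of the 9 genes was 1.09 under T/5z, and under T/S/Z it was 0.67, on the log2 scale, where the medians of all genes were -0.06 and -0.08. Tnfrsf1a, Tradd and Xiap were called in neither. With Nec-1s added, Tnf, Tnfrsf1b, Traf1, Traf2, Birc2 and Birc3 were called higher than in DMSO in each mixture, against 12.8% of all genes called for T/5z/N and 14.1% for T/S/Z/N. Nec-1s on its own called 0 of the 9 genes in microglia, where limma called 0% of all genes and 892 of 10524 had an unadjusted p under 0.05, none of them among the 9 genes. These comparisons share their DMSO libraries.

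**Figure D1:**
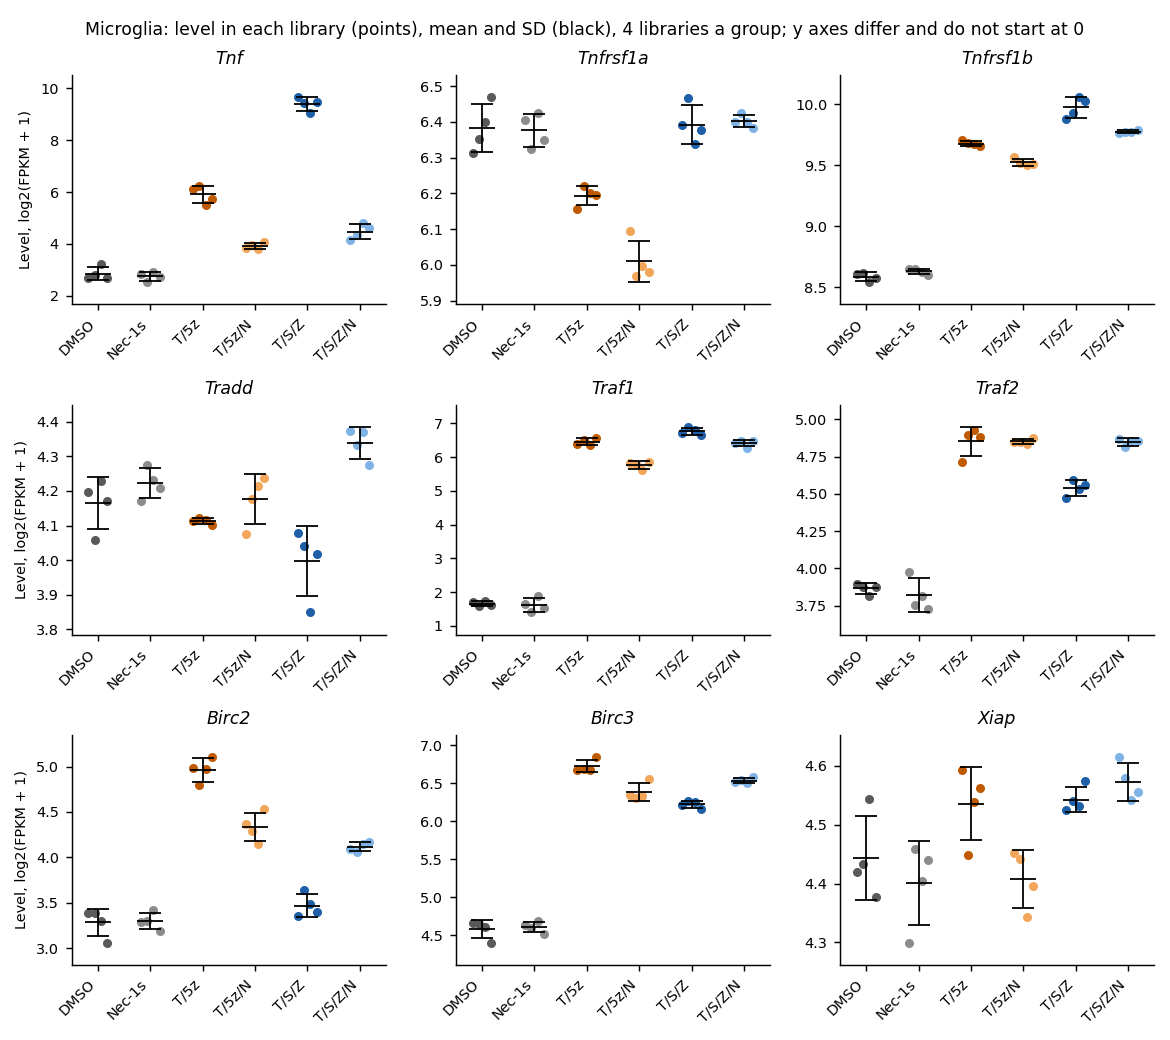
Level of each gene in every microglial library, on the log2(FPKM + 1) scale, by treatment. Points are libraries and black bars are the mean and SD over 4 libraries. Tnf was highest in T/S/Z (9.06 to 9.68), Birc2 was highest in T/5z (4.79 to 5.10), and Tnfrsf1a, Tradd and Xiap moved by less than 1 unit on axes that differ between panels.

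Tnf in microglia measured 2.69, 2.80, 3.21 and 2.70 in the 4 DMSO libraries and 2.82, 2.52, 2.92 and 2.71 in the Nec-1s libraries. It measured 6.12, 6.25, 5.51 and 5.74 after T/5z, and 9.68, 9.43, 9.06 and 9.46 after T/S/Z. The 3 ranges, of DMSO, T/5z and T/S/Z, did not overlap. In FPKM the means were 6.29, 60.2 and 686. The rise was 3.06 ± 0.18 (SE) on the log2 scale after T/5z (8.31-fold, adjusted p = 1.2e-05) and 6.56 ± 0.16 after T/S/Z (94.2-fold, adjusted p = 1.1e-07). T/S/Z exceeded T/5z by 3.50 ± 0.09 (adjusted p = 1.7e-06), a comparison that called 9.83% of all genes.

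With Nec-1s, Tnf measured 3.84, 3.96, 3.79 and 4.08 after T/5z and 4.15, 4.33, 4.81 and 4.61 after T/S/Z. It fell by 1.99 ± 0.11 (SE, adjusted p = 6.6e-06) from the level of T/5z and fell by 4.93 ± 0.17 (30.5-fold, adjusted p = 1.7e-06) from the level of T/S/Z, in 4 of 4 replicates each. All 8 libraries with Nec-1s stayed above all DMSO libraries. The rise left over DMSO was 1.07 ± 0.12 in T/5z/N (adjusted p = 0.00017) and 1.63 ± 0.08 in T/S/Z/N (adjusted p = 5.5e-06). Nec-1s thus took back 65.5% ± 8.2 (SD, n = 4) of the rise of T/5z and 75.1% ± 3.5 of the rise of T/S/Z, as shares of the log2 change. The drop was larger after T/S/Z by 2.94 ± 0.24 (SE, adjusted p = 1.5e-06, test of the difference), and 6.47% of all genes were called in that test. The mixtures with Nec-1s differed from each other by 0.56 ± 0.10 (adjusted p = 0.0053), under the fold set for a call, although their ranges did not overlap. Without replicate 1 that difference was 0.64 and without replicate 2 it was 0.62, both called.

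**Figure D2:**
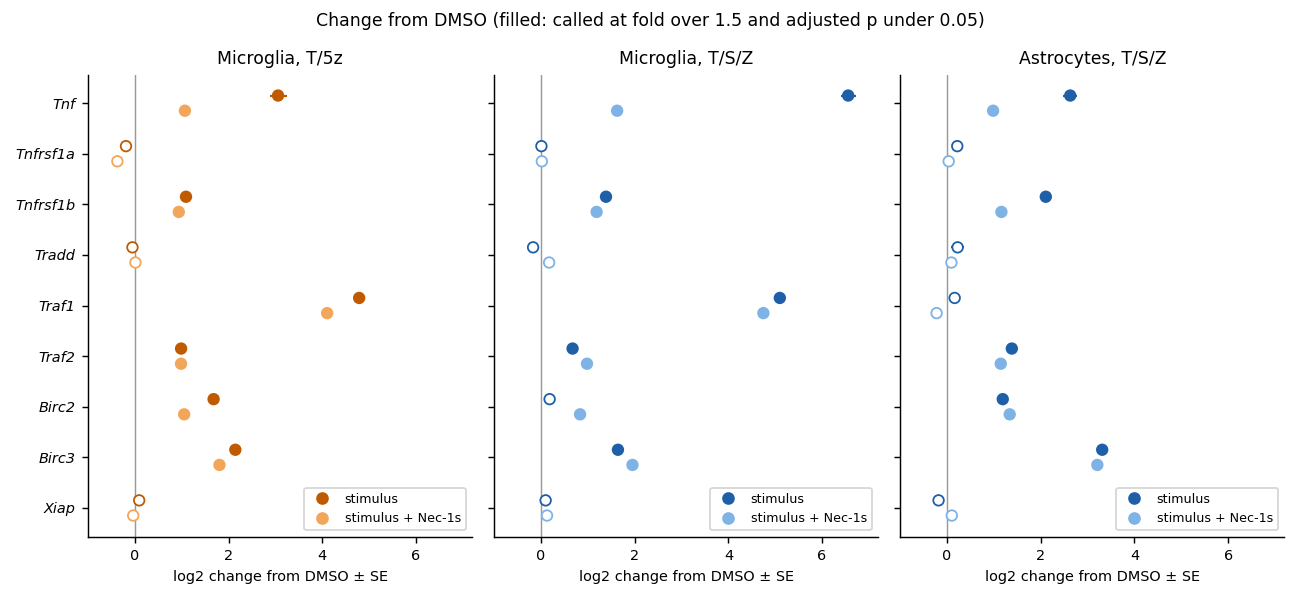
Change from DMSO on the log2 scale for each gene, without and with Nec-1s. Bars are SEs of limma and filled points were called. Tnf moved from 6.56 to 1.63 when Nec-1s was added to T/S/Z in microglia, while Traf1 moved from 5.10 to 4.75.

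The receptor genes parted. Tnfrsf1b, encoding TNFR2, lay between 8.54 and 8.62 in DMSO, between 9.65 and 9.70 after T/5z, and between 9.88 and 10.06 after T/S/Z, with no overlap among the 3 groups. It rose by 1.09 ± 0.04 (SE, adjusted p = 1.8e-06) after T/5z and by 1.39 ± 0.05 (adjusted p = 5.8e-07) after T/S/Z, that is 2.13-fold and 2.62-fold. With Nec-1s it lay between 9.50 and 9.56 and between 9.76 and 9.79. The differences made by Nec-1s, -0.15 ± 0.04 (adjusted p = 0.019) and -0.20 ± 0.07 (adjusted p = 0.032), were below the fold set for a call, and 14.1% ± 1.3 and 14.2% ± 4.4 of the rises were taken back. After quantile normalization the value for T/S/Z changed sign, to 0.05. Tnfrsf1a, encoding TNFR1, lay between 6.31 and 6.47 in DMSO, between 6.16 and 6.22 after T/5z, between 5.97 and 6.09 after T/5z/N, between 6.34 and 6.47 after T/S/Z and between 6.38 and 6.43 after T/S/Z/N. Its difference from DMSO was -0.19 ± 0.05 in T/5z (adjusted p = 0.0088) and -0.37 ± 0.06 in T/5z/N (adjusted p = 0.0011), neither large enough for a call, and 0.01 ± 0.05 in T/S/Z (adjusted p = 0.89). Within the libraries, the FPKM of Tnfrsf1a for each FPKM of Tnfrsf1b went from 0.216 ± 0.014 (SD) in DMSO to 0.088 ± 0.003 in T/5z and 0.083 ± 0.007 in T/S/Z, with no overlap between DMSO and either stimulus.

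Traf1 rose furthest among the adaptors. It measured 1.70, 1.60, 1.75 and 1.61 in the DMSO libraries, 6.38, 6.50, 6.35 and 6.58 after T/5z, and 6.71, 6.89, 6.79 and 6.65 after T/S/Z. Its rise was 4.79 ± 0.07 (27.6-fold, adjusted p = 1.7e-07) after T/5z and 5.10 ± 0.07 (34.2-fold, adjusted p = 9.3e-09) after T/S/Z. Nec-1s lowered it by a called amount after T/5z, where it fell by 0.68 ± 0.04 (adjusted p = 1.3e-05), and the difference after T/S/Z was -0.35 ± 0.06 (adjusted p = 0.0017). These were 14.3% ± 1.7 and 6.9% ± 2.8 of the rises. All 8 libraries with Nec-1s lay between 5.61 and 6.48. Traf1 was the 1 gene of the 9 called between the mixtures with Nec-1s, higher in T/S/Z/N by 0.64 ± 0.04 (adjusted p = 1e-05), where 3.38% of all genes were called.

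Traf2, the adaptor that carries cIAP1 and cIAP2, measured 3.81 to 3.90 in DMSO, 4.71 to 4.93 after T/5z and 4.47 to 4.59 after T/S/Z. It rose by 0.99 ± 0.06 (adjusted p = 1.4e-05) and by 0.67 ± 0.06 (adjusted p = 2.8e-05), and with 5 added before the log the latter was 0.55 and no longer called. With Nec-1s it measured 4.83 to 4.88 after T/5z and 4.81 to 4.87 after T/S/Z. The differences made by Nec-1s were -0.0011 ± 0.05 (adjusted p = 0.99) and 0.31 ± 0.05 (adjusted p = 0.00097), the latter below the fold for a call although every library of T/S/Z/N lay above every library of T/S/Z. Tradd, the adaptor that binds TNFR1 directly, lay between 3.85 and 4.37 over all 24 libraries. Its difference from DMSO was -0.17 ± 0.07 in T/S/Z (adjusted p = 0.066), and T/S/Z/N lay 0.34 ± 0.06 (adjusted p = 0.0015) above T/S/Z, in 4 of 4 replicates.

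Birc2, encoding cIAP1, was called after T/5z and not after T/S/Z. It measured 3.39, 3.38, 3.30 and 3.06 in DMSO and 4.98, 4.79, 4.97 and 5.10 after T/5z, a rise of 1.68 ± 0.10 (3.20-fold, adjusted p = 1.1e-05). After T/S/Z, the mixture that holds the Smac mimetic, it measured 3.35, 3.64, 3.48 and 3.40, a difference of 0.18 ± 0.08 from DMSO (adjusted p = 0.06) with overlapping groups. The level in T/S/Z was lower than in T/5z, a difference of -1.496 ± 0.09 (2.82-fold, adjusted p = 4e-05). With Nec-1s the levels under the stimuli drew closer. Birc2 fell by 0.63 ± 0.06 (adjusted p = 8.1e-05) from T/5z to T/5z/N, where it measured 4.37, 4.29, 4.15 and 4.53. It rose by 0.65 ± 0.07 (adjusted p = 0.00016) from T/S/Z to T/S/Z/N, where it measured 4.09, 4.06, 4.14 and 4.17. The difference between these effects was -1.28 ± 0.11 (adjusted p = 3.3e-06). T/S/Z/N was above DMSO by 0.83 ± 0.08 (adjusted p = 0.00015), and T/S/Z/N and T/5z/N differed by -0.22 ± 0.06 (adjusted p = 0.03), with overlapping groups. Both calls for Nec-1s were near the fold set for a call, 1.55-fold after T/5z and 1.57-fold after T/S/Z. The call after T/5z was lost without replicate 3 (-0.56) and with 5 added before the log (-0.54), and that after T/S/Z was lost with library medians centred (0.58) and with 5 added (0.50).

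Birc3, encoding cIAP2, rose after both stimuli. It measured 4.66, 4.65, 4.61 and 4.41 in DMSO, 6.68, 6.70, 6.68 and 6.85 after T/5z, and 6.21, 6.27, 6.26 and 6.16 after T/S/Z. The rises were 2.14 ± 0.08 (4.42-fold, adjusted p = 1.4e-06) and 1.64 ± 0.05 (3.12-fold, adjusted p = 3.2e-07), and T/S/Z lay below T/5z by a difference of -0.50 ± 0.06 (adjusted p = 0.00065) that missed the fold for a call. With Nec-1s it measured 6.35, 6.31, 6.33 and 6.56 after T/5z and 6.52, 6.54, 6.50 and 6.58 after T/S/Z. The differences made by Nec-1s ran in opposite directions, -0.34 ± 0.04 (adjusted p = 0.00021) and 0.31 ± 0.05 (adjusted p = 0.00092), each in 4 of 4 replicates and neither called by itself. Their difference was called, at -0.65 ± 0.07 (adjusted p = 2.2e-05), but not with a fold minimum of 2. The ratio of Birc3 to Birc2 in FPKM was 2.63 ± 0.09 (SD) in DMSO, 3.48 ± 0.24 in T/5z, 4.32 ± 0.30 in T/5z/N, 7.36 ± 0.54 in T/S/Z and 5.61 ± 0.22 in T/S/Z/N. Birc2 and Birc3 are paralogs, and how reads that match both were counted is not given in the sources used here. Xiap, encoding the caspase inhibitor XIAP, lay between 4.30 and 4.61 over the 24 libraries, with differences from DMSO of 0.09 ± 0.06 after T/5z (adjusted p = 0.19) and 0.10 ± 0.06 after T/S/Z (adjusted p = 0.16).

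**Figure D3:**
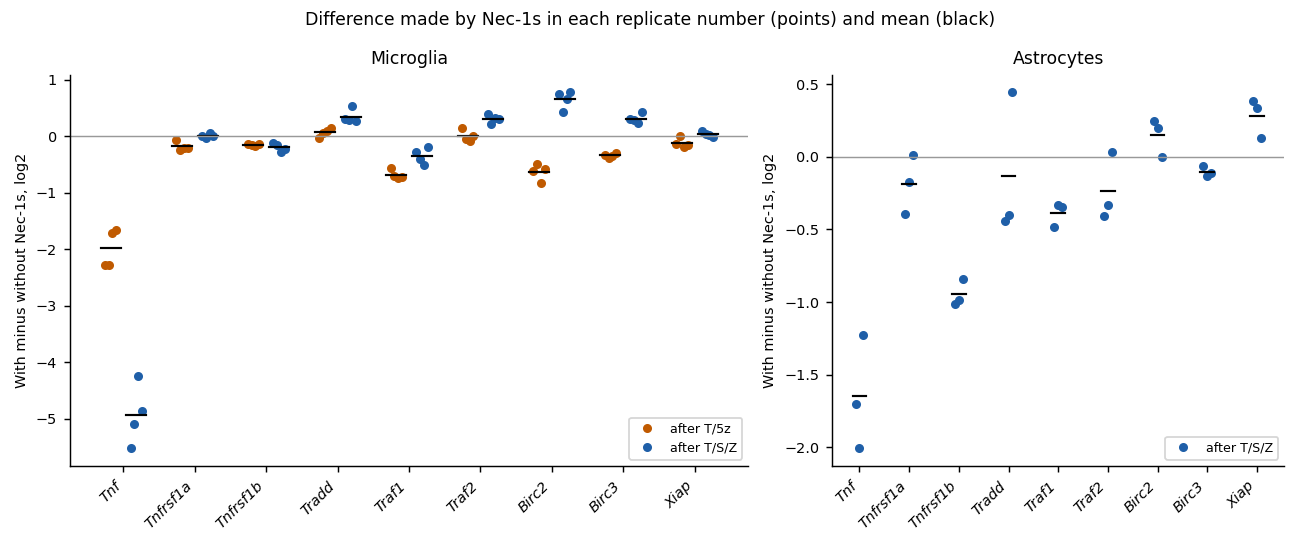
Difference between libraries with and without Nec-1s of the same replicate number, on the log2 scale. Points are replicate numbers and black bars their means. For Birc2 all 4 points after T/5z were below 0 and all 4 after T/S/Z above 0, with means of -0.63 and 0.65.

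Nec-1s called 3 of the 9 genes after T/5z (Tnf, Traf1 and Birc2, all lower) and 2 after T/S/Z (Tnf lower and Birc2 higher). Over all genes the shares called were 7.16% and 12.1%. The difference between the effects was called for Tnf, Birc2 and Birc3. Markers of other cell types were present in the microglial libraries and moved with the treatments. The summed FPKM of the 10 astrocyte markers was 175 to 235 in DMSO, 81.2 to 107 in T/5z, 121 to 130 in T/5z/N, 112 to 132 in T/S/Z and 135 to 152 in T/S/Z/N. In DMSO nearly all of this sum was Glul, encoding glutamine synthetase (7.40 to 7.82 on the log2 scale). The 9 markers without Glul went the other way in T/5z and T/S/Z, were within the DMSO range in T/5z/N, and were lower than in DMSO in T/S/Z/N. They summed to 7.17 to 9.14 in DMSO, 12.1 to 22.2 in T/5z, 8.15 to 8.95 in T/5z/N, 13.7 to 19.9 in T/S/Z and 4.88 to 6.03 in T/S/Z/N, against 2924 to 3404 in the astrocyte libraries. Among the 10 markers, 9 had a higher median in T/5z than in DMSO and 8 in T/S/Z, and 9 had a lower median with Nec-1s after each stimulus. The 7 fibroblast and mural markers summed to 6.69 to 9.12 FPKM in DMSO, 12.7 to 21.8 in T/5z, 7.30 to 9.25 in T/5z/N, 5.09 to 8.36 in T/S/Z and 3.70 to 5.83 in T/S/Z/N. The 7 oligodendrocyte lineage markers listed summed to 30.6 to 32.6 FPKM in DMSO, with Mbp at 4.52 to 4.62 on the log2 scale, and to between 25.6 and 37.7 under the stimuli with and without Nec-1s. Mbp moved against most of this list, with medians of 4.61 in DMSO, 4.13 in T/S/Z and 4.73 in T/S/Z/N. Of the 7 markers, 5 had a higher median in T/5z than in DMSO and 6 in T/S/Z. With Nec-1s, 6 had a lower median after each stimulus. The 3 endothelial markers listed summed to 6.28 to 8.56 in DMSO, 3.71 to 5.17 in T/5z, 3.40 to 3.88 in T/5z/N, 2.30 to 2.92 in T/S/Z and 2.79 to 3.21 in T/S/Z/N, and the 4 neuron markers listed to between 0.459 and 3.00 over all groups. The part of these cells in the microglial results was not tested.

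In astrocytes T/S/Z called 5 of the 9 genes, all higher than in DMSO: Tnf, Tnfrsf1b, Traf2, Birc2 and Birc3. Of all genes 15.4% were called. Astrocyte Tnf, below 1 on the log2 scale in every library of DMSO and Nec-1s, passed the filter only through the stimulated libraries, so its call is a description and the count without it is 4 of 8. The median change of the 9 genes was 1.19, against -0.11 for all genes, and it includes Tnf, so it is a description as well. Without Tnf, the called genes changed by 1.19 to 3.31 and those not called by -0.18 to 0.23. With Nec-1s added, Tnf, Tnfrsf1b, Traf2, Birc2 and Birc3 were again called higher than in DMSO (9.08% of all genes). The call of Tnf is again a description, and the count without it is 4 of 8. Of the 5 genes, 2, Tnf and Tnfrsf1b, were lower in T/S/Z/N than in T/S/Z (3.1% of all genes). Nec-1s alone called 0 of the 9 genes and 2 of 13842 genes in all (0.0144%), where 790 genes had an unadjusted p under 0.05. Among the 9 genes 1 was of these, Tnfrsf1a, at 0.14 ± 0.06 (limma, adjusted p = 0.86).

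**Figure D4:**
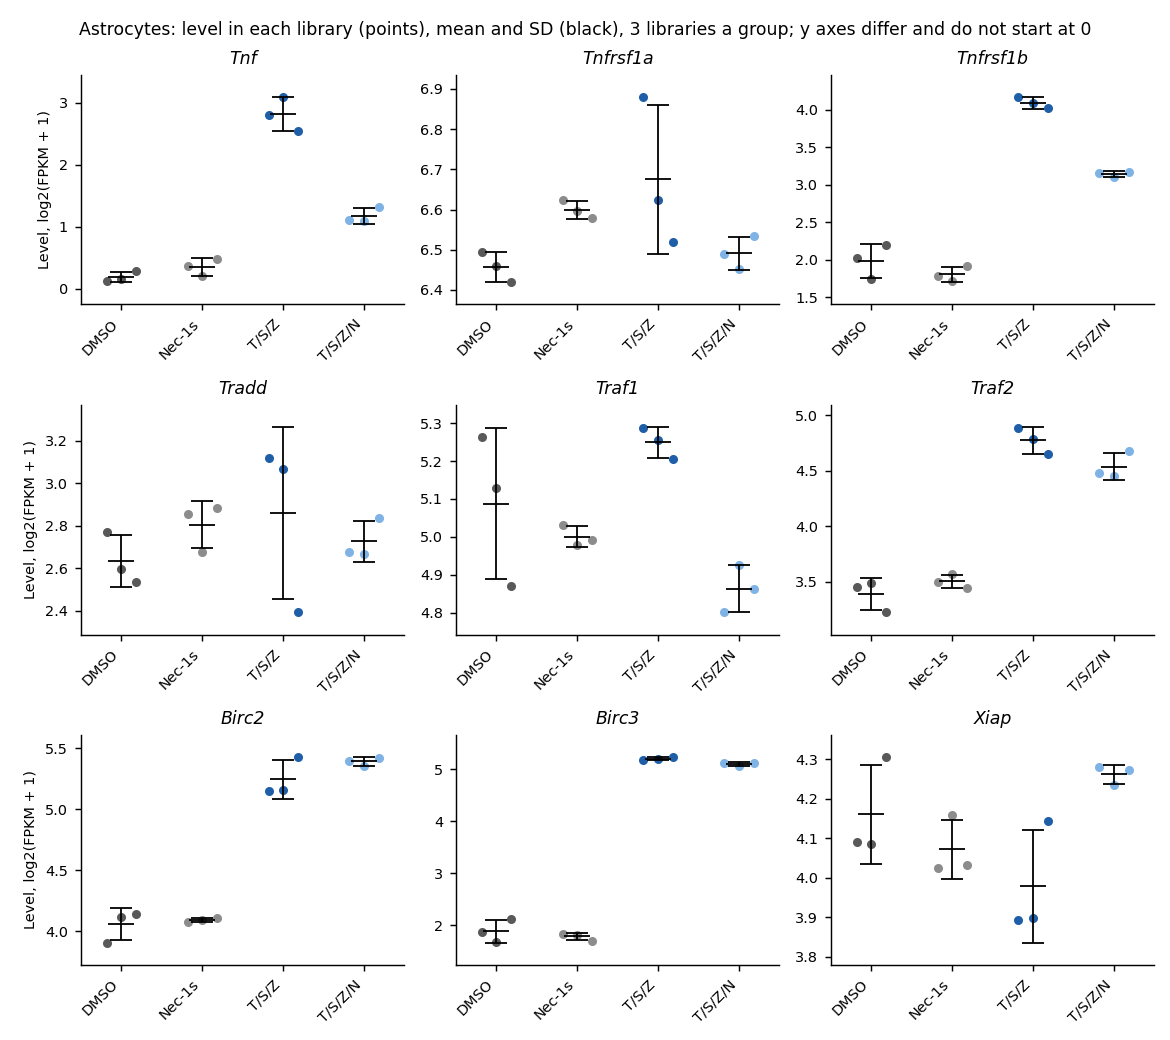
Level of each gene in every astrocyte library, on the log2(FPKM + 1) scale, by treatment. Points are libraries and black bars are the mean and SD over 3 libraries, on axes that differ between panels. Birc3 sat between 5.06 and 5.23 in the 6 stimulated libraries and between 1.68 and 2.12 in the 6 others.

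Birc3 rose furthest in astrocytes on the log2(FPKM + 1) scale, on which the 1 that is added holds down the change of a low gene such as Tnf. In FPKM, Tnf went from a mean of 0.144 in DMSO to 6.15 after T/S/Z, a larger ratio than that of Birc3, which went from 2.73 to 35.7. Birc3 measured 1.86, 1.68 and 2.12 in DMSO and 5.18, 5.19 and 5.23 after T/S/Z, a rise of 3.31 ± 0.10 (9.92-fold, adjusted p = 1.3e-06). With Nec-1s it measured 5.12, 5.06 and 5.11, a difference of -0.10 ± 0.08 (adjusted p = 0.42), so that 3.1% ± 1.1 (SD, n = 3) of the rise was taken back. Birc2 measured 3.91, 4.12 and 4.14 in DMSO, 5.15, 5.16 and 5.43 after T/S/Z, and 5.40, 5.36 and 5.42 after T/S/Z/N. It rose by 1.19 ± 0.08 (2.28-fold, adjusted p = 6.2e-05) under the mixture that did not call it in microglia, and the difference made by Nec-1s was 0.15 ± 0.09 (adjusted p = 0.3). Whether this response differed between the cell types was not tested, since the tables were made and normalized apart. Xiap lay between 3.89 and 4.31, with a difference of -0.18 ± 0.08 from DMSO after T/S/Z (adjusted p = 0.099).

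Traf2 measured 3.46, 3.49 and 3.23 in DMSO, 4.89, 4.79 and 4.65 after T/S/Z, and 4.48, 4.45 and 4.68 after T/S/Z/N. It rose by 1.38 ± 0.08 (2.61-fold, adjusted p = 2.7e-05), and the difference made by Nec-1s was -0.24 ± 0.11 (adjusted p = 0.19) with overlapping groups. Traf1, which rose 34.2-fold in microglia, measured 5.26, 5.13 and 4.87 in DMSO and 5.29, 5.25 and 5.21 after T/S/Z in astrocytes, a difference of 0.16 ± 0.08 (adjusted p = 0.17). It was already at 33.2 FPKM in DMSO, against 2.17 FPKM in microglia, but its exon length was 8819 bases in the astrocyte annotation and 4048 in the microglial one, so these levels are not on 1 scale. The exon lengths of the 9 genes were equal in both annotations for Tnf and Tnfrsf1b alone. Traf1 differed by -0.39 ± 0.08 (adjusted p = 0.039) between T/S/Z/N and T/S/Z, below the fold for a call. Tradd lay between 2.39 and 3.12 and differed from DMSO by 0.23 ± 0.14 after T/S/Z (adjusted p = 0.22).

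Tnf in astrocytes measured 0.13, 0.16 and 0.29 in DMSO, 2.81, 3.10 and 2.55 after T/S/Z and 1.11, 1.09 and 1.33 after T/S/Z/N. From the steps of the values these were about 3.22 to 8.11 reads or read pairs per library in DMSO, 172 to 264 after T/S/Z and 40.8 to 54.9 with Nec-1s. It rose by 2.63 ± 0.15 (adjusted p = 2.2e-05) and fell by 1.65 ± 0.15 with Nec-1s (adjusted p = 0.0017), with no overlap among the 3 groups, and 62.0% ± 7.3 of the rise was taken back. The rise left over DMSO in T/S/Z/N was 0.98 ± 0.10 (adjusted p = 0.0012), and 0.28 and not called with 5 added before the log. Tnfrsf1b measured 2.02, 1.74 and 2.20 in DMSO, 4.17, 4.09 and 4.02 after T/S/Z and 3.16, 3.11 and 3.18 after T/S/Z/N. It rose by 2.11 ± 0.12 (4.31-fold, adjusted p = 2.5e-05) and fell by 0.95 ± 0.09 with Nec-1s (adjusted p = 0.0019), 45.1% ± 2.7 of the rise. Tnfrsf1a lay between 6.42 and 6.88, with a difference of 0.22 ± 0.08 after T/S/Z (adjusted p = 0.069). The FPKM of Tnfrsf1a for each FPKM of Tnfrsf1b went from 29.9 ± 6.8 (SD) in DMSO to 6.30 ± 0.48 in T/S/Z and 11.3 ± 0.1 in T/S/Z/N, with no overlap.

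The astrocyte levels were also set beside those of microglial markers in the same libraries. Set side by side across the tables, which were normalized separately, the astrocyte mean of Tnf was between 0.897% and 5.86% of the microglial mean under the same treatment, and that of Tnfrsf1b between 0.633% and 1.60%. The 12 microglial markers that reached 100 FPKM in DMSO microglia, a minimum chosen after the values were seen, had 0.349% to 5.07% of their microglial level in the DMSO astrocytes and 0.177% to 3.43% in those given T/S/Z. Tnf and Tnfrsf1b were within the range of these markers in 4 of 4 treatments, and the other 7 genes in 0 of 4. That count depends on the minimum. Over all 15 markers listed in both tables, whose range in DMSO ran up to 43.0% (Tmem119, low in these microglia), Tradd was also within the range in 3 of 4 treatments and Birc3 in 2, with Tnf and Tnfrsf1b in 4 and the other 5 genes in 0. The summed FPKM of the 15 microglial markers listed for astrocytes was 132 to 141 in DMSO, 85.3 to 91.6 in T/S/Z and 115 to 125 in T/S/Z/N, so it was lower where Tnf and Tnfrsf1b were higher. Of these 15 markers, 14 had a lower median in T/S/Z than in DMSO, and 14 a higher median in T/S/Z/N than in T/S/Z. The part of residual microglia in the levels of Tnf and Tnfrsf1b in astrocytes was not tested. Fibroblast and mural markers, 7 genes, summed to 613 to 627 in DMSO, 113 to 126 in T/S/Z and 492 to 494 in T/S/Z/N, oligodendrocyte lineage markers (7 listed) to 100 to 117, 60.3 to 86.9 and 67.9 to 71.9, and astrocyte markers to 3436 to 3503, 3074 to 3259 and 3069 to 3092. The 2 endothelial markers listed summed to 16.0 to 17.4, 3.29 to 4.02 and 9.54 to 10.8, and the 2 neuron markers listed to 68.0 to 79.3, 50.0 to 51.5 and 56.1 to 59.5. Their part in the astrocyte results was not tested.

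**Figure D5:**
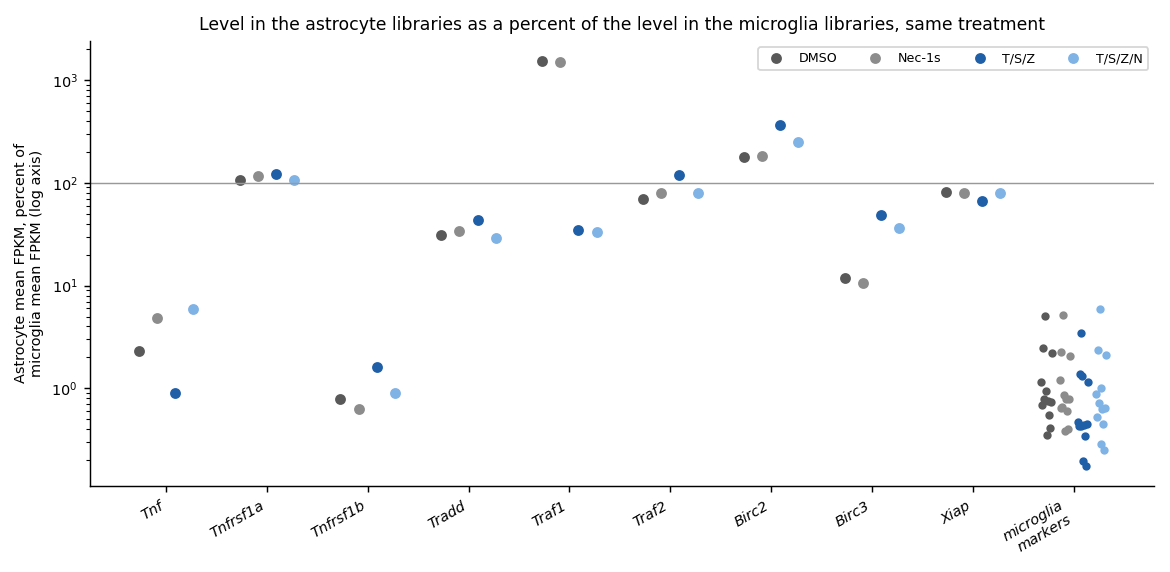
Mean FPKM in astrocytes as a percent of the mean FPKM in microglia under the same treatment, on a log axis, for the 9 genes and for the 12 microglial markers of at least 100 FPKM in DMSO microglia. The tables were normalized separately, and the exon length differed between them for all of the 9 genes but Tnf and Tnfrsf1b. Tnf (0.897% to 5.86%) and Tnfrsf1b (0.633% to 1.60%) lie among these 12 markers, and the other genes lie above them.

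The wider pathway was read from 7 further lists, by counts of called genes. The counts are to be read against the 24.4% of all genes that T/5z called in microglia in either direction, the 29.6% that T/S/Z called there and the 15.4% that T/S/Z called in astrocytes. Of 17 genes of the TNFR1 signalling complex, T/5z called 3 higher and 1 lower in microglia, T/S/Z 4 higher and 1 lower, and T/S/Z in astrocytes 3 higher and 0 lower. These were 23.5%, 29.4% and 17.6% of the list, near the shares of all genes. Tnfaip3 encodes the deubiquitinase A20, which restrains the complex, and Tnip1 its binding partner. Tnfaip3 rose in microglia by 3.41 ± 0.11 after T/5z (adjusted p = 9.4e-07) and by 4.55 ± 0.06 after T/S/Z (adjusted p = 1e-08), and in astrocytes by 4.01 ± 0.09. Tnip1 rose by 2.26 ± 0.08, 2.63 ± 0.05 and 3.10 ± 0.09. Nec-1s lowered both in microglia, where Tnfaip3 fell by 1.29 ± 0.09 after T/5z and fell by 2.05 ± 0.05 after T/S/Z. In astrocytes the differences made by Nec-1s were -0.37 ± 0.08 for Tnfaip3 and -0.58 ± 0.08 for Tnip1, neither called. Tab1, encoding a partner of the kinase TAK1, fell by 0.68 ± 0.07 after T/5z and fell by 1.06 ± 0.08 after T/S/Z in microglia.

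Among the 5 other TRAF genes, 4 were tested in microglia and 1 was called higher after each stimulus, Traf6 after T/5z at 0.61 ± 0.08 and Traf3 after T/S/Z at 0.90 ± 0.09. Traf3 was also the 1 called in astrocytes, at 0.61 ± 0.08. Of the 12 other IAP genes and IAP antagonists, 8 were tested in microglia, where T/5z called 0 higher and 1 lower and T/S/Z 0 higher and 2 lower. Those were Naip5, a sensor of bacterial flagellin, at -0.74 ± 0.08 and -0.74 ± 0.09, and Naip6, at -0.61 ± 0.07 after T/S/Z. In microglia these counts were 25.0% of the other TRAF genes tested after each stimulus and 12.5% and 25.0% of the other IAP genes, beside 24.4% and 29.6% of all genes, and rest on 1 or 2 genes each. Of 7 tested in astrocytes, Xaf1, which encodes a protein that binds XIAP, rose by 1.55 ± 0.14 and Sept4 fell by 0.86 ± 0.09.

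In the noncanonical NF-κB list, which holds genes of the arm that TRAF2 and the cIAP proteins restrain, T/5z called 3 of 7 higher in microglia, T/S/Z called 4 of 7, and T/S/Z in astrocytes called 5 of 6, with 0 lower in each. These shares, 42.9%, 57.1% and 83.3%, stand beside 24.4%, 29.6% and 15.4% of all genes. Nfkb2 rose by 1.98 ± 0.06 and 2.08 ± 0.05 in microglia and by 3.10 ± 0.09 in astrocytes, and Relb by 1.89 ± 0.06, 1.64 ± 0.06 and 3.02 ± 0.08. The changes of Nfkb2 and Relb made by Nec-1s in microglia were between -0.21 and 0.10 and not called. The receptor gene Cd40 rose by 6.03 ± 0.14 after T/5z and by 4.05 ± 0.12 after T/S/Z, and Nec-1s lowered it after T/5z, where it fell by 1.47 ± 0.06, with a difference of -0.43 after T/S/Z that was not called.

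Of 14 genes for the shedding of TNF and the control of its mRNA, T/5z called 5 higher and 2 lower in microglia and T/S/Z 5 higher and 1 lower, that is 50.0% and 42.9% of the list beside 24.4% and 29.6% of all genes. Zfp36, encoding tristetraprolin, which marks the Tnf mRNA for decay, rose by 0.70 ± 0.06 after T/5z and by 2.46 ± 0.07 after T/S/Z. With Nec-1s it fell by 2.08 ± 0.06 from T/S/Z, and its difference after T/5z was -0.22 ± 0.05. The difference of these effects was 1.86 ± 0.10, in the direction of that of Tnf. Zc3h12a, encoding the RNase Regnase-1, rose by 1.57 ± 0.07 after T/S/Z and fell by 2.22 ± 0.10 with Nec-1s. Mapkapk2, encoding the kinase MK2, rose by 1.84 ± 0.05 and 1.64 ± 0.07, and Zfp36l2 fell by 1.79 ± 0.12 and fell by 2.36 ± 0.10. In astrocytes 4 of the 14 were higher and 1 lower after T/S/Z (35.7%, beside 15.4% of all genes), with Zc3h12a at 2.43 ± 0.13, Zfp36 at 1.54 ± 0.09 and Rhbdf2, a partner of the TNF-cleaving protease, at 1.48 ± 0.13, while Timp3 fell by 1.07 ± 0.09.

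Of 17 other ligands of the TNF superfamily, 3 passed the filter in microglia. Tnfsf9, the ligand of 4-1BB, rose by 3.38 ± 0.11 after T/5z and by 4.92 ± 0.10 after T/S/Z, and fell by 2.52 ± 0.07 and fell by 2.61 ± 0.05 with Nec-1s. Tnfsf12, encoding TWEAK, fell by 1.04 ± 0.08 and fell by 0.93 ± 0.06. In astrocytes 8 were tested and 6 were called higher after T/S/Z (75%, beside 15.4% of all genes, a description only, since a ligand silent at rest is tested only where the stimulus raises it), among them Tnfsf18 at 2.69 ± 0.13 and Tnfsf11, encoding RANKL, at 1.65 ± 0.11. Of 8 other receptors tested in microglia, T/5z called 3 higher and 3 lower and T/S/Z 2 higher and 2 lower, that is 75% and 50.0% beside 24.4% and 29.6% of all genes. The other 13 receptors of that list of 21 were not tested in microglia, and a gene that passes the filter only where it is high has to differ, so these shares, too, are a description. Fas, a death receptor, rose by 2.87 ± 0.13 and 2.18 ± 0.11 in microglia and by 1.38 ± 0.08 in astrocytes, where 4 of 13 receptors were called higher and 2 lower (46.2%). Tnfrsf21, encoding death receptor 6, fell by 1.83 ± 0.10 and fell by 1.72 ± 0.06 in microglia.

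For each gene, the tested genes with the most similar levels over all libraries were named by Pearson's r, as a description. The libraries share their treatments, so that any gene moved by the stimuli scores high. Over the 24 microglial libraries Tnf was closest to the chemokine genes Ccl3 (r = 0.993) and Ccl4 (r = 0.990) and to the receptor gene Hcar2 (r = 0.992). Traf1 was close to Nfkb2 (r = 0.998) and Nfkbia (r = 0.995), and Tnfrsf1b to Rab20 (r = 0.994), Sqstm1 (r = 0.992) and Nfkbia (r = 0.990). Birc3 was closest to Tma16 (r = 0.997), Ikbke (r = 0.995) and Jak2 (r = 0.994), Birc2 to Leng9 (r = 0.987), Tmem110 (r = 0.977) and Il10ra (r = 0.971), and Traf2 to Bcl3 (r = 0.987), Lmo4 (r = 0.987) and Nr1h3 (r = 0.986). The best r of Tnfrsf1a, Tradd and Xiap was 0.922, 0.864 and 0.876. Over the 12 astrocyte libraries Birc3 was closest to Gbp5 (r = 0.9996), Ccl2 (r = 0.998) and Gbp2 (r = 0.998), Tnf to Il1b (r = 0.991), and Birc2 to Mmp13 (r = 0.998).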

How the data were processed

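RNA was sequenced from 24 microglial and 12 astrocyte libraries. The values were made by the authors with OmicSoft Array Studio: FPKM per gene, scaled to a common 75th percentile, deposited as log2 after adding 1. The aligner's settings and the gene model release are not given in the sources used here. Per the labels, the providers differed between the tables, with strand-specific libraries for astrocytes alone, so no test crossed them. The deposited annotation gave coordinates and exon lengths. In the microglial table each gene had equal means in all replicates (largest difference 6.67e-05), an adjustment the methods do not describe, and up to 1438 values per library were negative. Whole reads were not recovered (84.1% of low astrocyte values within 0.2 of a whole multiple, and 75.6% in replicate 4 of microglia), so no count test was run.

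Groups were compared with limma 3.58.1 (R 4.3.3; lmFit, eBayes with trend), 2-sided, on the libraries of the compared groups, over genes with a log2 value of at least 1 in 4 (microglia) or 3 (astrocytes) libraries. The interaction was fitted over the 4 stimulated microglial groups. The replicate number was a block because the study's test was paired. Whether same-numbered libraries deviate together could not be checked in microglia, where the adjustment removes what they share, and in astrocytes the correlations of deviations were between -0.144 and 0.411. The methods describe replicates in general as single mice or as cells from separate litters, and the labels do not say which holds for these libraries, so p-values measure the spread between them. The 1 added before the log makes the changes of low genes too small. Errors are SDs for levels and shares and SEs for changes. The share taken back was 100 × (stimulus minus stimulus with Nec-1s) / (stimulus minus DMSO) per replicate number. All 9 genes were named in every comparison, and from each other list at most 4 genes per cell type, called against DMSO and ranked by the size of the change. The genes and lists were chosen with earlier results of these data known. The fitting steps were tested on simulated data. Alternatives changed the value added before the log, the filter, the block, the scaling, the libraries fitted, the fold minimum and the replicates. 1 gene of the likeness lists is not reported here.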

Additional observations from a re-analysis of the deposited data

Results flagged for a closer look

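In 54 groups of 4 microglial libraries, 1 library stood apart from the other 3 in 2 groups, both for Birc3 and both for replicate 4. Birc3 was at 6.8462 in T/5z, with the others between 6.68 and 6.70, and at 6.5551 in T/5z/Nec-1s, with the others between 6.31 and 6.35. Chance alone gives about 1 such group in 20.

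The effect of Nec-1s after T/5z minus that after T/S/Z was called in microglia for Tnf (2.9442), Birc2 (-1.2785) and Birc3 (-0.6488), by the interaction test of limma. For Birc2 and Birc3 the effects had opposite signs in 4 of 4 replicates, and for Tnf both were negative.

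Microglia and astrocytes moved in opposite directions, in every replicate of each, in 3 cases, and these differences were not tested because the tables were normalized apart. Tnfrsf1b differed from DMSO under Nec-1s by 0.0421 in microglia and -0.1837 in astrocytes, neither called. Traf1 differed from DMSO under T/S/Z/N by 4.7468 in microglia, called, and by -0.2235 in astrocytes, not called. Birc3 differed between T/S/Z/N and T/S/Z by 0.3101 in microglia and by -0.1037 in astrocytes, neither called.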

How the results depend on the processing

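For 126 differences (9 genes in 14 comparisons), 1464 alternative values were computed. Of these 1408 kept their direction and their side of the threshold, 19 lost a call, 2 gained one, and 35 changed sign. The settings for the block, the filter, the libraries fitted and the fold minimum leave the difference itself as it was. Under them the direction was fixed beforehand, and they bear on the calls alone. Every change of sign was in a value that was not called, the largest being 0.24. Without the replicate block all 126 kept their side of the threshold, and T/5z against DMSO in microglia called 6 genes and T/S/Z 5. Their direction could not change there, since every group holds the same replicate numbers. In microglia, where the replicate means were already equal, this setting tests little.

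With a fold minimum of 2, the genes called by Nec-1s went from 3 to 1 after T/5z, from 2 to 1 after T/S/Z, and from 2 to 1 in astrocytes, and those called between T/S/Z/N and T/5z/N from 1 to 0. The difference between the effects of Nec-1s on Birc3 (-0.65) was no longer called, which left 2 of 3 such genes. Against DMSO in microglia the genes called went from 6 to 5 for T/5z, from 5 to 4 for T/S/Z and from 6 to 4 for both mixtures with Nec-1s, and in astrocytes from 5 to 4 for T/S/Z/N. The 2 called by Nec-1s after T/S/Z in microglia also became 1 with 5 added before the log and 1 with library medians centred, Birc2 being lost each time. Leaving out 1 replicate gave 1 to 2 genes between T/S/Z/N and T/5z/N, where Tnf was added without replicate 1 (0.64) or 2 (0.62). The effect of Nec-1s on Tnfrsf1b after T/S/Z reversed to 0.05346 after quantile normalization. A mean log2 value of at least 3 takes Tnf, Tnfrsf1b and Tradd out of the astrocyte tests by construction, which left 3 genes called for T/S/Z, 3 for T/S/Z/N and 0 for Nec-1s after T/S/Z. Depth limits Tnf in untreated astrocytes, at about 3.22 to 8.11 reads or read pairs per library.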
